A study of Caenorhabditis elegans with 9 samples.

Results

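The genes described here encode the nuclear pore and the factors of nuclear transport in Caenorhabditis elegans, taken as every probe set whose platform annotation names 1 gene with a symbol of the form npp-, imb-, ima-, ran- or xpo- followed by a number. The rule gave 64 probe sets for 41 genes, of 20766 probe sets that name 1 of 17118 genes, and left out 1 probe set that names npp-12 together with another gene. A probe set was tested if it lay above the 40th percentile of its array on at least 3 of the 9 arrays, which kept 61 of the 64 probe sets and 40 of the 41 genes. Of the 41 genes, 39 lay above that percentile on all 9 arrays, npp-25 on 7 and npp-26 on 1. Where a gene had more than 1 probe set, as 16 genes did, the one with the highest mean signal over the 9 arrays stands for it unless another is named. The 41 genes lie on chromosomes I (13 genes), II, III and IV (8 genes each) and V (4 genes), and 2 pairs among them are next to each other in the gene table, imb-3 with xpo-2 and npp-15 with ran-2.

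The nuclear pore complex is the gated channel through the nuclear envelope, and its building blocks are the nucleoporins, named npp in worms. Cargo passes through it on carriers: importin alpha binds the import signal and importin beta, importin beta and its relatives (imb) or the exportins (xpo) carry the cargo through the channel, and the small GTPase Ran, loaded with GTP in the nucleus and emptied by hydrolysis in the cytoplasm, gives the traffic its direction. The same genes serve the rapid nuclear divisions of the germ line and early embryo, where pores are taken apart and rebuilt at each mitosis. SUMO, the small ubiquitin-like modifier, meets this machinery in vertebrates, where the cytoplasmic nucleoporin Nup358 binds the SUMO-modified Ran GTPase-activating protein.

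The 3 groups of 3 arrays were the aex-3 SUMO line (JS62), the myo-4 SUMO line (JS63) and N2, the non-transgenic wild-type strain. Both lines carry His-tagged SUMO-1, in one line behind the neuronal aex-3 promoter and in the other behind that of myo-4, a name also used for the body wall muscle myosin unc-54. Each construct is represented by 1 line, so line and construct cannot be told apart. All groups were whole animals labelled as first-stage larvae after bleaching, grown on OP50 bacteria, with 3 biological replicate populations per group. The question the design states is how each transgenic line differs from N2.

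Values are array signal, given for replicates 1, 2 and 3 in that order within each group. Changes are log2 fold changes ± SE from a limma fit to all 9 arrays on log2(signal + 1.62), a scale that draws the changes of dim genes toward 0. Rose, fell and called refer to a Benjamini-Hochberg adjusted p under 0.05 over the 14204 probe sets tested. Signals are compared between groups for the same probe set, never between genes, since probes differ in brightness.

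The first principal component (61.6% of the variance) separated N2 from both lines. It placed the N2 arrays at -43.84, -39.16 and -61.8 and the transgenic arrays at 19.1 to 31.6. On the second (10.99%) N2 replicate 1 stood apart, at 36.91, with the other N2 arrays at -14.79 and -17.88. Across the tested pore and transport genes the N2 arrays spread more (median SD 0.20 log2) than the aex-3 SUMO (0.10) or myo-4 SUMO arrays (0.07). The wider spread of N2 was not particular to these genes. Over all probe sets tested the medians were 0.23 in N2, 0.13 in aex-3 SUMO and 0.14 in myo-4 SUMO. The array medians were 23.19 to 24.56 in aex-3 SUMO, 24.82 to 25.71 in myo-4 SUMO and 27.57 to 28.62 in N2, so that the comparisons with N2 run along an offset between arrays. Although labelled as larvae, all arrays carried oocyte, germ line and yolk transcripts. All 15 oocyte and germ line markers measured, among them the yolk receptor rme-2, lay above the 40th percentile on every array. So did 5 of 5 yolk protein genes. As a check of the labels, smo-1, the worm's SUMO gene, had signals of 957, 1078 and 1018 in aex-3 SUMO, 1055, 928 and 887 in myo-4 SUMO and 715, 687 and 512 in N2, with no overlap of either line with N2. Whether the smo-1 probe set detects the transgene is not known, so its signals cannot check the labels. Of the genes whose promoters were used, unc-54 had signals of 1071, 988 and 1123 in aex-3 SUMO, 628, 842 and 909.7 in myo-4 SUMO and 2179, 1368 and 1677 in N2, falling by 0.69 and 1.12 (log2) in those lines, and aex-3 was dim, at 1.92 to 31.4, with no call. Whether these probe sets also detect transcripts of the transgenes is not known, so they cannot check the labels either.

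Most genes of the pore and of transport were higher in both lines than in N2, by less than 2-fold each at the probe set that stands for the gene. In aex-3 SUMO 33 of 40 genes rose and 1 fell, where 24.1% of all 14204 probe sets rose and 24% fell. In myo-4 SUMO 33 of 40 rose and 1 fell, against 24% and 20.3% of all probe sets. The median log2 fold change of the 40 genes was 0.54 in aex-3 SUMO and 0.57 in myo-4 SUMO, while the medians over all probe sets tested were -0.04 and 0.0039. Brighter probe sets rose more often. With only the 9625 above the 60th percentile on at least 3 arrays tested, 3208 rose in aex-3 SUMO and 3226 in myo-4 SUMO. Their medians were 0.10 and 0.12. No gene of the 40 reached 2-fold in either line at that probe set, where 9.75% of all probe sets did in aex-3 SUMO and 8.08% in myo-4 SUMO. Over all 61 tested probe sets of these genes 1 did in each line (1.64%), a dimmer one of ima-1.

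The changes lay close together. Between the quartiles they were 0.40 to 0.65 in aex-3 SUMO, with a full range of -0.55 to 0.93, and 0.47 to 0.71 in myo-4 SUMO, with a range of -0.40 to 0.92. Their SD across genes was 0.27 in aex-3 SUMO and 0.24 in myo-4 SUMO, beside 0.63 and 0.62 over all probe sets. For 31 genes all aex-3 SUMO arrays were above all N2 arrays, and for 32 genes all myo-4 SUMO arrays were, where 27.4% and 27% of all probe sets showed this. Both comparisons use the same N2 arrays, so the 31 genes called higher in both lines (20% of all probe sets were) do not count as an independent repeat. In aex-3 SUMO alone ran-4 and ran-5 were called higher, and in myo-4 SUMO alone npp-4 and imb-2, with no call between the lines for any of them.

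**Figure D1:**
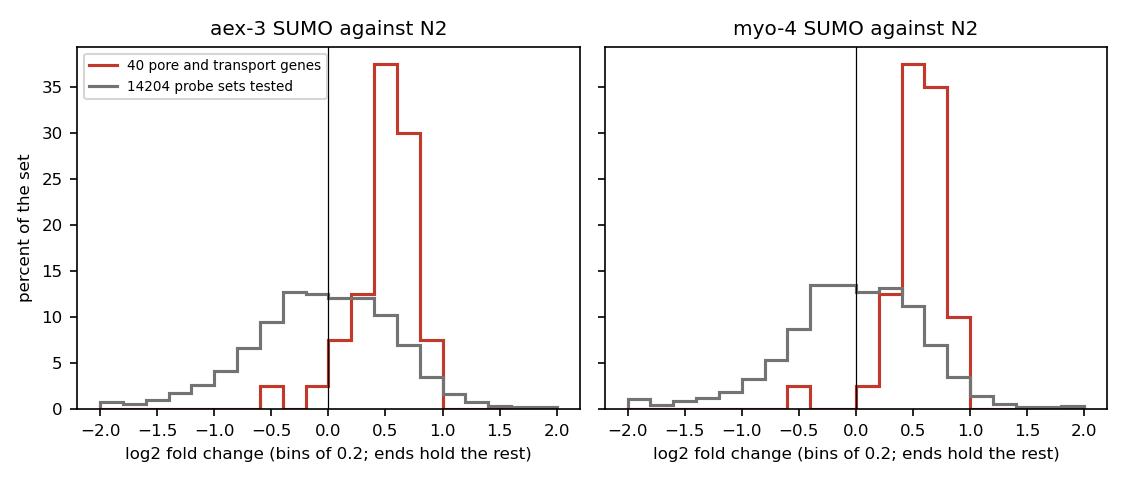
Share in percent (y axis) of log2 fold changes in bins 0.2 wide (x axis) for the 40 pore and transport genes and for all 14204 probe sets tested, aex-3 SUMO against N2 and myo-4 SUMO against N2; the bins at the ends hold the rest. The pore and transport genes form a narrow peak around medians of 0.54 and 0.57, within a wide distribution of all probe sets centred near 0.

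The same shift was seen on each of the 6 transgenic arrays. The median over the 40 genes of the log2 signal minus the N2 mean was 0.56, 0.45 and 0.60 on the aex-3 SUMO arrays, 0.61, 0.55 and 0.55 on the myo-4 SUMO arrays, and 0.10, 0.06 and -0.12 on the N2 arrays. The lowest transgenic array therefore lay above the highest N2 array. Within N2 the highest of the 3 signals was on replicate 1 for 22 genes, on replicate 2 for 16 and on replicate 3 for 2. Without N2 replicate 1 the counts called higher were 33 of 40 in aex-3 SUMO and 36 of 40 in myo-4 SUMO. Leaving out aex-3 SUMO replicate 3 gave the lowest count for that line, 25 of 40. When each array was centred on its own median, the median over all probe sets moved to 0.18 in aex-3 SUMO and 0.15 in myo-4 SUMO. The centring adds 1 constant to each array, so the median of the pore and transport genes relative to it is 0.57 in each line by construction. Under that centring the share of all calls that were higher was 71.5% in aex-3 SUMO and 70.0% in myo-4 SUMO, against 50.1% and 54.2% with the deposited scaling.

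**Figure D2:**
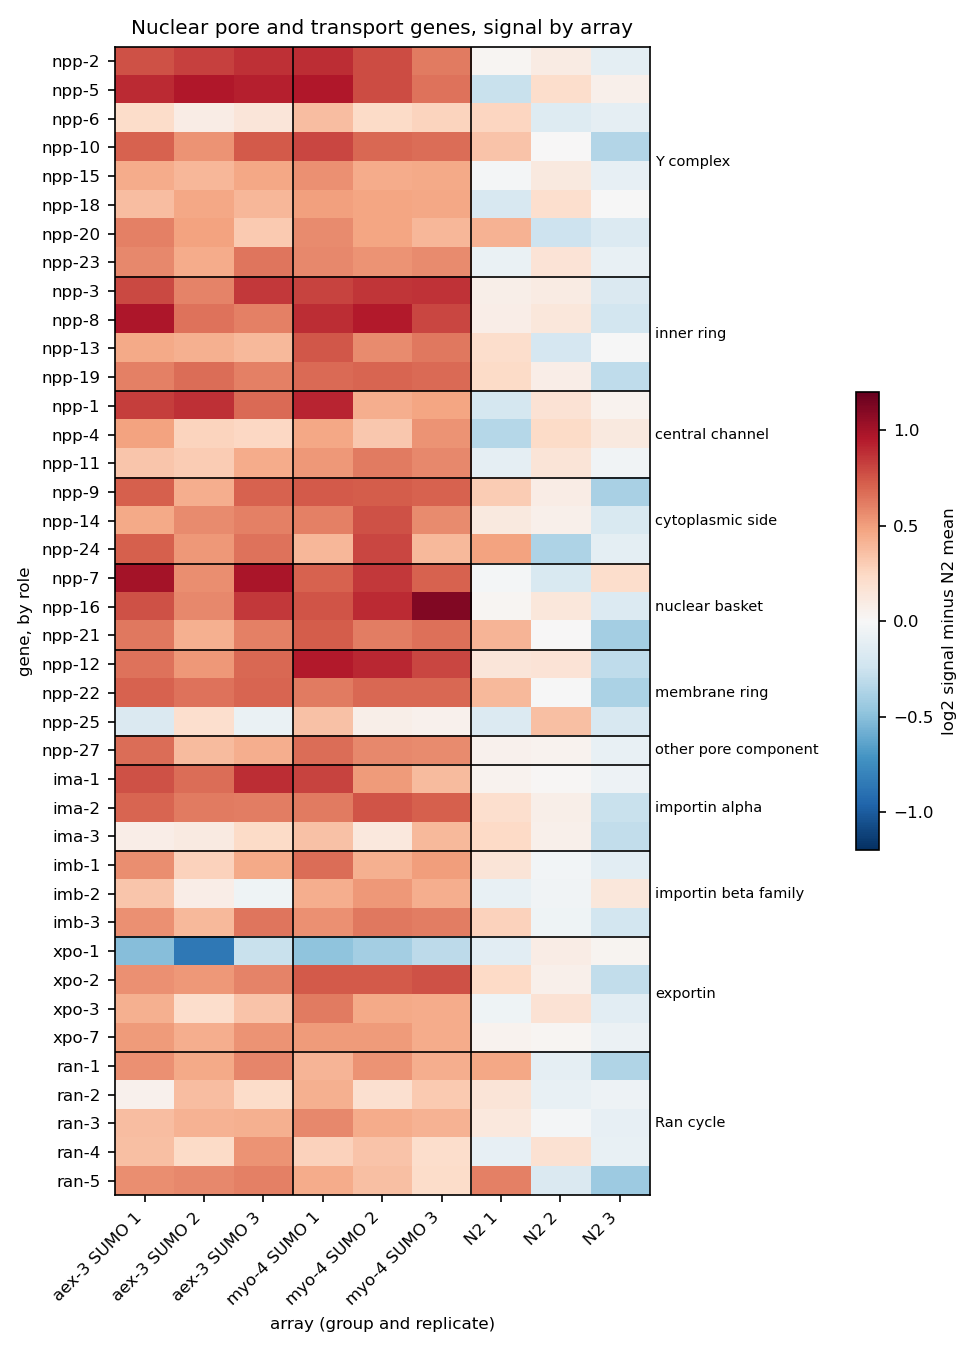
Log2 signal minus the N2 mean (colour) of each of the 40 tested genes (rows, by role) on each of the 9 arrays (columns: aex-3 SUMO, myo-4 SUMO, N2). The transgenic columns lie above 0 for most rows, with xpo-1 below 0 on all 6 transgenic arrays and npp-25, ima-3, imb-2 and npp-6 closest to N2 in aex-3 SUMO.

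The Y complex is the outer scaffold of the pore, and 7 of its 8 measured genes rose in each line, with medians of 0.51 in aex-3 SUMO and 0.52 in myo-4 SUMO. npp-2, the counterpart of vertebrate Nup85, had signals of 331, 346 and 359 in aex-3 SUMO, 362, 335 and 300.3 in myo-4 SUMO and 198, 208 and 179 in N2. Both lines were well above N2, with a change of 0.82 ± 0.11 (adjusted p = 0.000136) in aex-3 SUMO and 0.76 ± 0.11 (adjusted p = 0.000232) in myo-4 SUMO. npp-5 (Nup107), needed in worms for proper kinetochore function as well as in the pore, had signals of 100.3, 106 and 103 in aex-3 SUMO, 105, 92.8 and 84.6 in myo-4 SUMO and 44.0, 61.9 and 55.8 in N2. Its lowest transgenic array exceeded its highest N2 array, and it changed by 0.93 ± 0.14 (adjusted p = 0.000297) in aex-3 SUMO, the upper end of the 40 genes, and by 0.80 ± 0.14 (adjusted p = 0.000865) in myo-4 SUMO. npp-10, whose product is cut into the counterparts of Nup98 and Nup96, had signals of 244, 218 and 249 in aex-3 SUMO, 261, 241 and 238 in myo-4 SUMO and 189.6, 149.9 and 116 in N2. No transgenic array of npp-10 overlapped N2, and the changes were 0.66 ± 0.15 in aex-3 SUMO and 0.72 ± 0.15 in myo-4 SUMO. npp-23 (Nup43) had signals of 216, 198 and 226 in aex-3 SUMO, 216, 210.1 and 214 in myo-4 SUMO and 136, 162 and 136 in N2. It rose by nearly the same amount in both lines, 0.56 ± 0.11 in aex-3 SUMO and 0.56 ± 0.11 in myo-4 SUMO.

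Smaller changes were found for npp-18 (Seh1), 0.41 ± 0.11 in aex-3 SUMO and 0.47 ± 0.11 in myo-4 SUMO, and for npp-15 (Nup133), 0.43 ± 0.11 and 0.48 ± 0.11 in the same order of lines, in each case with no overlap with N2. npp-20 (Sec13), which also coats transport vesicles leaving the endoplasmic reticulum, had signals of 193, 176 and 157 in aex-3 SUMO, 188, 176 and 167 in myo-4 SUMO and 169, 106 and 112 in N2. N2 replicate 1 reached into the range of both lines, and the changes were 0.47 ± 0.16 (adjusted p = 0.0315) in aex-3 SUMO and 0.48 ± 0.16 (adjusted p = 0.0294) in myo-4 SUMO. For npp-20 in aex-3 SUMO the call was lost when N2 replicate 2 (0.34 and 0.117), N2 replicate 3 (0.38 and 0.0948), aex-3 SUMO replicate 1 (0.39 and 0.116) or aex-3 SUMO replicate 2 (0.46 and 0.0756), each given with its change and adjusted p, was left out. For npp-20 in myo-4 SUMO the call was lost when N2 replicate 2 (0.36 and 0.106), N2 replicate 3 (0.40 and 0.0885), myo-4 SUMO replicate 1 (0.44 and 0.0987) or myo-4 SUMO replicate 2 (0.49 and 0.0705), each given with its change and adjusted p, was left out. npp-6 (Nup160) was the Y complex gene with no call, having signals of 123, 112 and 116 in aex-3 SUMO, 136, 123 and 127 in myo-4 SUMO and 126, 94.3 and 97.4 in N2. N2 replicate 1 lay above aex-3 SUMO and within myo-4 SUMO while the other N2 arrays lay below both, and the changes were 0.15 ± 0.13 (adjusted p = 0.341) in aex-3 SUMO and 0.29 ± 0.13 (adjusted p = 0.0882) in myo-4 SUMO. npp-6 was called in aex-3 SUMO when N2 replicate 1 (change 0.28, adjusted p = 0.0429) was left out. npp-6 was called in myo-4 SUMO when N2 replicate 1 (change 0.42, adjusted p = 0.00715) was left out.

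All 4 inner ring genes, which line the channel wall and hold its filaments, rose in both lines, with medians of 0.68 in aex-3 SUMO and 0.77 in myo-4 SUMO. npp-3 (Nup205) had signals of 107, 93.3 and 112 in aex-3 SUMO, 109, 112 and 113 in myo-4 SUMO and 64.2, 65.7 and 54.2 in N2. The N2 arrays were all below the lines, and the changes were 0.75 ± 0.12 (adjusted p = 0.000466) in aex-3 SUMO and 0.85 ± 0.12 (adjusted p = 0.000235) in myo-4 SUMO. npp-8 (Nup155) had signals of 112, 90.0 and 86.9 in aex-3 SUMO, 106, 111 and 100.3 in myo-4 SUMO and 60.2, 62.4 and 48.5 in N2. The groups did not overlap with N2, and this probe set, its brightest, rose by 0.74 ± 0.14 in aex-3 SUMO and 0.88 ± 0.14 in myo-4 SUMO. Of its 4 other tested probe sets none was called in aex-3 SUMO, where the adjusted p by limma was 0.0861 (174671_at), 0.434 (175473_at), 0.483 (176075_at) and 0.094 (176088_at), with changes of 0.32 ± 0.15, 0.13 ± 0.13, 0.15 ± 0.17 and 0.36 ± 0.17 in that order. In myo-4 SUMO 175473_at (0.38 ± 0.13) and 176088_at (0.69 ± 0.17) were called higher, while 174671_at (0.17 ± 0.15) and 176075_at (0.45 ± 0.17) were not. npp-19 (Nup35), required in worms for pore assembly, had signals of 297, 309.7 and 296 in aex-3 SUMO, 311, 317 and 312 in myo-4 SUMO and 228, 206 and 157 in N2. Both lines stood above N2 on every array, by 0.63 ± 0.13 in aex-3 SUMO and 0.68 ± 0.13 in myo-4 SUMO. npp-13 (Nup93) had signals of 109, 107 and 104 in aex-3 SUMO, 134, 118 and 124 in myo-4 SUMO and 92.1, 68.8 and 78.9 in N2. The myo-4 SUMO arrays were the highest and the N2 arrays the lowest, with changes of 0.42 ± 0.13 (adjusted p = 0.0157) in aex-3 SUMO and 0.65 ± 0.13 (adjusted p = 0.00153) in myo-4 SUMO. Between the lines npp-13 was not called (0.23, adjusted p = 0.661 by limma). For npp-13 in aex-3 SUMO the call was lost when N2 replicate 2 (change 0.32, adjusted p = 0.0567) or aex-3 SUMO replicate 1 (change 0.41, adjusted p = 0.0536) was left out.

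The central channel nucleoporins carry the phenylalanine-glycine repeats through which carriers pass. npp-1 (Nup54) had signals of 172, 177 and 155 in aex-3 SUMO, 182, 130.4 and 134 in myo-4 SUMO and 82.6, 108 and 98.9 in N2. It rose by 0.80 ± 0.15 (adjusted p = 0.00105) in aex-3 SUMO and 0.61 ± 0.15 (adjusted p = 0.00582) in myo-4 SUMO, with the N2 arrays below all others. npp-11 (Nup62) had signals of 143, 141 and 154 in aex-3 SUMO, 163, 175 and 169 in myo-4 SUMO and 105, 126 and 109.9 in N2. All groups were apart, myo-4 SUMO highest and N2 lowest, and the changes were 0.36 ± 0.11 (adjusted p = 0.0187) in aex-3 SUMO and 0.57 ± 0.11 (adjusted p = 0.00156) in myo-4 SUMO. The difference of npp-11 between the lines was not called (0.21, adjusted p = 0.634 by limma). For npp-11 in aex-3 SUMO the call was lost when aex-3 SUMO replicate 3 (change 0.32, adjusted p = 0.0771) was left out. npp-4 (Nup58) had signals of 199, 172 and 169 in aex-3 SUMO, 197, 178 and 207 in myo-4 SUMO and 112, 166 and 154 in N2. No transgenic array fell among the N2 arrays, but only the myo-4 SUMO change of 0.44 ± 0.15 (adjusted p = 0.0283) was called, that in aex-3 SUMO being 0.33 ± 0.15 (adjusted p = 0.0796). npp-4 was called in aex-3 SUMO when N2 replicate 2 (change 0.45, adjusted p = 0.0325) was left out. For npp-4 in myo-4 SUMO the call was lost when N2 replicate 1 (change 0.27, adjusted p = 0.0693), myo-4 SUMO replicate 1 (change 0.43, adjusted p = 0.08) or myo-4 SUMO replicate 3 (change 0.39, adjusted p = 0.0897) was left out.

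On the cytoplasmic face all 3 genes rose in both lines. npp-9, the counterpart of Nup358, had signals of 581, 477 and 579 in aex-3 SUMO, 589, 584 and 577 in myo-4 SUMO and 436, 375 and 269 in N2. N2 lay below both lines on all arrays, and npp-9 changed by 0.62 ± 0.15 (adjusted p = 0.00571) in aex-3 SUMO and 0.72 ± 0.15 (adjusted p = 0.00263) in myo-4 SUMO. npp-14 (Nup214), part of the site where exported RNA leaves the pore, had signals of 162, 176 and 181 in aex-3 SUMO, 181, 202 and 177 in myo-4 SUMO and 129, 124 and 104 in N2. Again no transgenic array overlapped N2, with changes of 0.54 ± 0.12 in aex-3 SUMO and 0.65 ± 0.12 in myo-4 SUMO. npp-24 (Nup88) had signals of 131, 114 and 125 in aex-3 SUMO, 105, 139 and 105 in myo-4 SUMO and 112, 60.9 and 73.2 in N2. N2 replicate 1 was close to the lines and above 2 myo-4 SUMO arrays, the other N2 arrays were far lower, and the changes were 0.63 ± 0.19 (adjusted p = 0.0177) in aex-3 SUMO and 0.53 ± 0.19 (adjusted p = 0.0402) in myo-4 SUMO. For npp-24 in aex-3 SUMO the call was lost when N2 replicate 2 (0.44 and 0.0738), N2 replicate 3 (0.57 and 0.0514), aex-3 SUMO replicate 1 (0.58 and 0.0599) or aex-3 SUMO replicate 3 (0.62 and 0.0521), each given with its change and adjusted p, was left out. For npp-24 in myo-4 SUMO the call was lost when N2 replicate 2 (0.34 and 0.158), N2 replicate 3 (0.47 and 0.102), myo-4 SUMO replicate 1 (0.60 and 0.062), myo-4 SUMO replicate 2 (0.40 and 0.162) or myo-4 SUMO replicate 3 (0.60 and 0.0528), each given with its change and adjusted p, was left out.

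The nuclear basket, the filaments on the inner face that meet chromatin and outgoing RNA, also had 3 of 3 genes called higher in both lines. npp-7 (Nup153) had signals of 238, 174 and 234 in aex-3 SUMO, 194, 213 and 194 in myo-4 SUMO and 116, 104 and 136 in N2. The lowest transgenic array was above the highest N2 array, and the changes were 0.85 ± 0.14 (adjusted p = 0.000549) in aex-3 SUMO and 0.75 ± 0.14 (adjusted p = 0.0013) in myo-4 SUMO. npp-16 (Nup50), a cofactor of importin alpha recycling in vertebrates, had signals of 188, 165 and 199.8 in aex-3 SUMO, 186, 205 and 239.5 in myo-4 SUMO and 112, 121 and 98.1 in N2. It rose by 0.73 ± 0.13 (adjusted p = 0.000809) in aex-3 SUMO and by 0.92 ± 0.13 (adjusted p = 0.000216) in myo-4 SUMO, the upper end for that line. npp-21 (Tpr) had signals of 129, 111 and 126 in aex-3 SUMO, 138, 128 and 132 in myo-4 SUMO and 109.9, 82.8 and 61.9 in N2. N2 ranged widely but stayed below both lines, with changes of 0.55 ± 0.17 (adjusted p = 0.0177) in aex-3 SUMO and 0.67 ± 0.17 (adjusted p = 0.00744) in myo-4 SUMO. For npp-21 in aex-3 SUMO the call was lost when N2 replicate 3 (change 0.35, adjusted p = 0.0589), aex-3 SUMO replicate 1 (change 0.51, adjusted p = 0.0621) or aex-3 SUMO replicate 3 (change 0.53, adjusted p = 0.0577) was left out.

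Of the membrane nucleoporins that anchor the pore in the envelope, npp-12 (gp210) had signals of 372, 339 and 382 in aex-3 SUMO, 457, 442 and 412 in myo-4 SUMO and 261, 264 and 189.9 in N2. The groups formed 3 separate ranges, myo-4 SUMO highest, and npp-12 changed by 0.62 ± 0.13 (adjusted p = 0.00219) in aex-3 SUMO and 0.89 ± 0.13 (adjusted p = 0.000264) in myo-4 SUMO. Its difference between the lines was not called (0.26, adjusted p = 0.609 by limma). npp-22 (Ndc1) rose by 0.68 ± 0.16 in aex-3 SUMO and 0.67 ± 0.16 in myo-4 SUMO, again without overlap with N2. npp-25 (TMEM33) was dim, having signals of 15.1, 20.04 and 16.2 in aex-3 SUMO, 22.4, 18.2 and 17.9 in myo-4 SUMO and 15.2, 22.6 and 14.8 in N2. All groups overlapped, and the differences were -0.02 ± 0.22 (adjusted p = 0.949) in aex-3 SUMO and 0.16 ± 0.22 (adjusted p = 0.588) in myo-4 SUMO. The sign of the npp-25 difference in aex-3 SUMO turned when N2 replicate 2 (change 0.16, adjusted p = 0.578), aex-3 SUMO replicate 1 (change 0.06, adjusted p = 0.873) or aex-3 SUMO replicate 3 (change 0.01, adjusted p = 0.971) was left out.

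Among the remaining npp genes, npp-27 had signals of 127, 103 and 108 in aex-3 SUMO, 127, 119.3 and 118 in myo-4 SUMO and 81.9, 81.8 and 74.3 in N2. It rose by 0.49 ± 0.12 in aex-3 SUMO and 0.60 ± 0.12 in myo-4 SUMO, with N2 below on every array. npp-26 was not tested, having signals of 7.38, 10.8 and 5.09 in aex-3 SUMO, 9.6, 4.36 and 7.91 in myo-4 SUMO and 16.1, 8.38 and 12.1 in N2. Over all npp genes tested, 22 of 25 rose in aex-3 SUMO and 23 of 25 in myo-4 SUMO, with medians of 0.62 and 0.65.

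**Figure D3:**
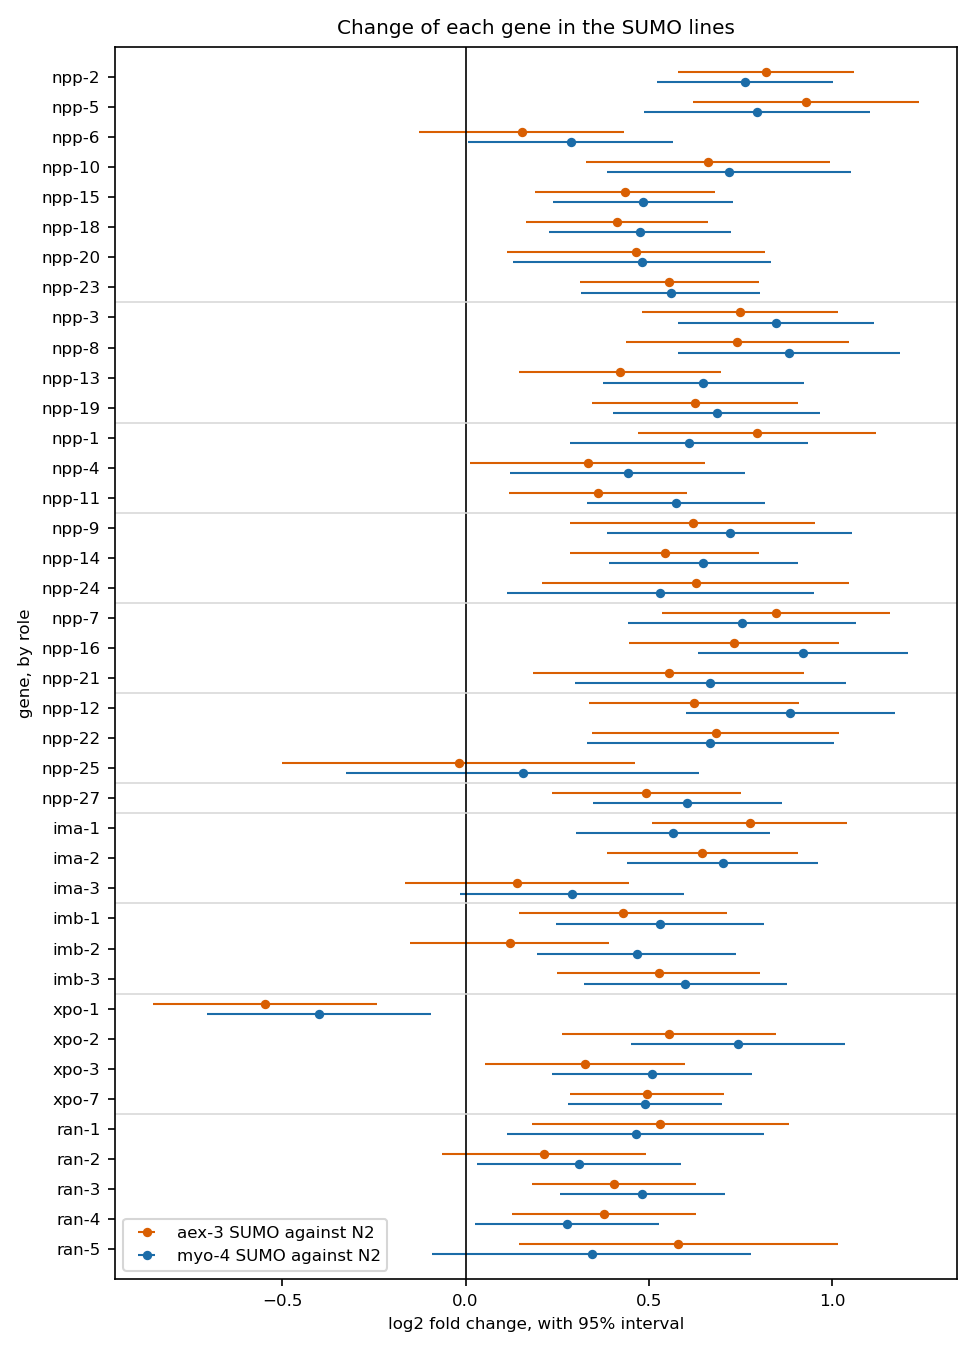
Log2 fold change against N2 (x axis) with its 95% interval for each of the 40 tested genes (rows, by role) in aex-3 SUMO and myo-4 SUMO. Pore components have medians of 0.62 in aex-3 SUMO and 0.65 in myo-4 SUMO, transport factors 0.43 and 0.48, and xpo-1 alone lies below 0 with an interval that does not reach it.

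Among the carriers and Ran cycle genes 11 of 15 rose in aex-3 SUMO and 10 of 15 in myo-4 SUMO, with medians of 0.43 and 0.48. Whether this differs from the pore components was not tested. The importin alphas of worms include a pair made in the germ line, ima-1 and ima-2, and a general form, ima-3. Both ima-1 and ima-2 rose in each line, and ima-3 rose in myo-4 SUMO at 1 of its 2 probe sets, the dimmer one. Differences between these genes were not tested. ima-2 had signals of 983, 937 and 930.3 in aex-3 SUMO, 936, 1028 and 1000.0 in myo-4 SUMO and 699, 636 and 503 in N2. Its N2 arrays were all below the lines, and the changes were 0.65 ± 0.12 (adjusted p = 0.000993) in aex-3 SUMO and 0.70 ± 0.12 (adjusted p = 0.000657) in myo-4 SUMO. ima-1 had signals of 431, 404 and 468 in aex-3 SUMO, 444, 360.5 and 329 in myo-4 SUMO and 260.5, 256 and 242 in N2. It rose by 0.77 ± 0.12 (adjusted p = 0.000356) in aex-3 SUMO and 0.57 ± 0.12 (adjusted p = 0.00281) in myo-4 SUMO, without overlap with N2. ima-3 had signals of 184, 188 and 204 in aex-3 SUMO, 222, 190.3 and 228 in myo-4 SUMO and 206, 181 and 141 in N2. The N2 arrays overlapped both lines, the differences of 0.14 ± 0.14 (adjusted p = 0.425) in aex-3 SUMO and 0.29 ± 0.14 (adjusted p = 0.111) in myo-4 SUMO were not called, and the suffix of this probe set marks it as one whose probes may match other transcripts too. The sign of the ima-3 difference in aex-3 SUMO turned when N2 replicate 3 (change -0.01, adjusted p = 0.96) was left out. ima-3 was called in myo-4 SUMO when N2 replicate 1 (change 0.41, adjusted p = 0.02) was left out.

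imb-1, the worm's importin beta, had signals of 99.9, 81.8 and 93.2 in aex-3 SUMO, 108, 90.8 and 96.2 in myo-4 SUMO and 75.3, 66.0 and 61.5 in N2. Both lines stood above N2, by 0.43 ± 0.13 (adjusted p = 0.0167) in aex-3 SUMO and 0.53 ± 0.13 (adjusted p = 0.00603) in myo-4 SUMO. For imb-1 in aex-3 SUMO the call was lost when aex-3 SUMO replicate 1 (change 0.37, adjusted p = 0.0764) or aex-3 SUMO replicate 3 (change 0.42, adjusted p = 0.0541) was left out. imb-3, a relative of importin 5, whose yeast counterpart carries ribosomal proteins, had signals of 583, 522 and 623 in aex-3 SUMO, 583, 619 and 612 in myo-4 SUMO and 482, 383 and 342 in N2. No array of either line overlapped N2, and imb-3 changed by 0.53 ± 0.13 (adjusted p = 0.00502) in aex-3 SUMO and 0.60 ± 0.13 (adjusted p = 0.00262) in myo-4 SUMO. imb-2, the counterpart of transportin, had signals of 144, 121 and 110.5 in aex-3 SUMO, 156, 165 and 156 in myo-4 SUMO and 108, 111 and 126 in N2. The myo-4 SUMO arrays were all above the rest, while aex-3 SUMO and N2 overlapped, and the changes were 0.12 ± 0.13 (adjusted p = 0.445) in aex-3 SUMO and 0.47 ± 0.13 (adjusted p = 0.00967) in myo-4 SUMO. Between the lines imb-2 was not called (0.35, adjusted p = 0.411 by limma).

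Of the exportins, xpo-2, the counterpart of CAS that returns importin alpha to the cytoplasm, had signals of 125, 123 and 129 in aex-3 SUMO, 143, 143 and 145 in myo-4 SUMO and 101, 88.6 and 69.0 in N2. The 3 groups did not overlap, and xpo-2 changed by 0.55 ± 0.14 (adjusted p = 0.00507) in aex-3 SUMO and 0.74 ± 0.14 (adjusted p = 0.000949) in myo-4 SUMO. Its difference between the lines was not called (0.19, adjusted p = 0.764 by limma). xpo-7 had signals of 384, 364 and 393 in aex-3 SUMO, 384, 386 and 367 in myo-4 SUMO and 278, 273 and 257 in N2. It rose by 0.49 ± 0.10 in aex-3 SUMO and 0.49 ± 0.10 in myo-4 SUMO. xpo-3, the counterpart of the tRNA exporter exportin-t, had signals of 96.6, 82.8 and 90.6 in aex-3 SUMO, 110.5, 98.6 and 97.7 in myo-4 SUMO and 68.9, 80.7 and 65.2 in N2. N2 lay below both lines, narrowly so below aex-3 SUMO, and the changes were 0.33 ± 0.13 (adjusted p = 0.0479) in aex-3 SUMO and 0.51 ± 0.13 (adjusted p = 0.00619) in myo-4 SUMO. For xpo-3 in aex-3 SUMO the call was lost when N2 replicate 1 (0.30 and 0.0713), N2 replicate 3 (0.26 and 0.12), aex-3 SUMO replicate 1 (0.28 and 0.161), aex-3 SUMO replicate 2 (0.38 and 0.0542) or aex-3 SUMO replicate 3 (0.32 and 0.112), each given with its change and adjusted p, was left out.

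xpo-1, the counterpart of CRM1 and the main exporter of proteins with a leucine-rich signal, was the single gene called lower in either line, and it was singled out after its values were seen. Its brighter probe set, 174625_at, had signals of 252, 198 and 299 in aex-3 SUMO, 258, 271 and 289.8 in myo-4 SUMO and 331, 383 and 370.0 in N2. All 6 transgenic arrays lay below all N2 arrays, as 29.0% of all probe sets did in aex-3 SUMO and 25.3% in myo-4 SUMO, by -0.55 ± 0.14 (adjusted p = 0.00708) in aex-3 SUMO and -0.40 ± 0.14 (adjusted p = 0.0354) in myo-4 SUMO. For xpo-1 in myo-4 SUMO the call was lost when N2 replicate 2 (-0.36 and 0.0908), N2 replicate 3 (-0.38 and 0.0714), myo-4 SUMO replicate 1 (-0.36 and 0.113), myo-4 SUMO replicate 2 (-0.40 and 0.0877) or myo-4 SUMO replicate 3 (-0.44 and 0.0521), each given with its change and adjusted p, was left out. Its other probe set, 192060_at, had signals of 211, 189.7 and 192 in aex-3 SUMO, 215, 224 and 234 in myo-4 SUMO and 224, 162 and 172 in N2. There N2 overlapped both lines, and the differences were 0.10 ± 0.13 (adjusted p = 0.547) in aex-3 SUMO and 0.28 ± 0.13 (adjusted p = 0.0907) in myo-4 SUMO. The sign of the xpo-1 difference thus depended on the probe set. With each array centred on its own median the brighter probe set stayed negative without a call, at -0.33 (adjusted p = 0.0843) in aex-3 SUMO and -0.25 (adjusted p = 0.185) in myo-4 SUMO.

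In the Ran cycle 4 of 5 genes rose in aex-3 SUMO and 2 of 5 in myo-4 SUMO. ran-1, Ran itself, had signals of 1976, 1850.0 and 2024 in aex-3 SUMO, 1793, 1960.0 and 1830.0 in myo-4 SUMO and 1858, 1255 and 1052 in N2. N2 replicate 1 lay among the transgenic arrays and the other N2 arrays well below them, and the changes were 0.53 ± 0.16 (adjusted p = 0.0168) in aex-3 SUMO and 0.46 ± 0.16 (adjusted p = 0.034) in myo-4 SUMO. For ran-1 in aex-3 SUMO the call was lost when N2 replicate 2 (change 0.48, adjusted p = 0.0537), N2 replicate 3 (change 0.35, adjusted p = 0.0676) or aex-3 SUMO replicate 3 (change 0.50, adjusted p = 0.0582) was left out. For ran-1 in myo-4 SUMO the call was lost when N2 replicate 2 (0.41 and 0.0945), N2 replicate 3 (0.28 and 0.136), myo-4 SUMO replicate 1 (0.49 and 0.0636), myo-4 SUMO replicate 2 (0.43 and 0.096) or myo-4 SUMO replicate 3 (0.48 and 0.0704), each given with its change and adjusted p, was left out. ran-3, the counterpart of RCC1, which loads Ran with GTP on chromatin, rose by 0.40 ± 0.10 (adjusted p = 0.00672) in aex-3 SUMO and 0.48 ± 0.10 (adjusted p = 0.0027) in myo-4 SUMO without overlap with N2. ran-2, the counterpart of the Ran GTPase-activating protein that is SUMO-modified in vertebrates, had signals of 95.1, 118.7 and 107 in aex-3 SUMO, 124, 105 and 114 in myo-4 SUMO and 102, 85.9 and 87.6 in N2. N2 overlapped aex-3 SUMO and lay just below myo-4 SUMO, and the differences of 0.21 ± 0.13 (adjusted p = 0.184) and 0.31 ± 0.13 (adjusted p = 0.0669) in those lines were not called. ran-2 was called in myo-4 SUMO when N2 replicate 1 (change 0.39, adjusted p = 0.0238) was left out.

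ran-4, the counterpart of NTF2, which brings Ran back into the nucleus, changed by 0.38 ± 0.12 (adjusted p = 0.0177) in aex-3 SUMO and 0.28 ± 0.12 (adjusted p = 0.0689) in myo-4 SUMO, with no array of either line among the N2 arrays. For ran-4 in aex-3 SUMO the call was lost when aex-3 SUMO replicate 3 (change 0.29, adjusted p = 0.0934) was left out. ran-4 was called in myo-4 SUMO when N2 replicate 2 (change 0.37, adjusted p = 0.0248) was left out. ran-5, a protein with a Ran-binding domain, had signals of 314, 319.9 and 325 in aex-3 SUMO, 291, 275 and 249 in myo-4 SUMO and 325, 189.5 and 158 in N2. The highest aex-3 SUMO array (325.1) lay just below N2 replicate 1 (325.3) while the other N2 arrays were the lowest of all 9, and the changes were 0.58 ± 0.20 (adjusted p = 0.0306) in aex-3 SUMO and 0.34 ± 0.20 (adjusted p = 0.18) in myo-4 SUMO. For ran-5 in aex-3 SUMO the call was lost when N2 replicate 2 (0.49 and 0.095), N2 replicate 3 (0.36 and 0.122), aex-3 SUMO replicate 1 (0.59 and 0.0669), aex-3 SUMO replicate 2 (0.58 and 0.0693) or aex-3 SUMO replicate 3 (0.57 and 0.0801), each given with its change and adjusted p, was left out. ran-5 was called in myo-4 SUMO when N2 replicate 1 (change 0.65, adjusted p = 0.000606) was left out.

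Second probe sets gave a check within genes. Of 15 genes with more than 1 tested probe set, 14 had the same sign in all of them in each line, xpo-1 being the exception in both. All probe sets of a gene were called higher for 8 genes in aex-3 SUMO and 9 in myo-4 SUMO, and calls were mixed for 6 in each line. For ima-1 the dimmest probe set, 175688_at, gave the largest change of any of the 61, 1.34 ± 0.23 in aex-3 SUMO and 1.10 ± 0.23 in myo-4 SUMO, beside 0.77 ± 0.12 and 0.57 ± 0.12 at its brightest. For ran-2 the dimmer probe set, 174985_s_at, was called in both lines, at 0.56 ± 0.14 (adjusted p = 0.00646) in aex-3 SUMO and 0.62 ± 0.14 (adjusted p = 0.004) in myo-4 SUMO. The dimmer imb-2 probe set, 174443_at, was called in aex-3 SUMO too, at 0.43 ± 0.13 (adjusted p = 0.0166). The second ima-3 probe set, 175699_s_at, rose in myo-4 SUMO by 0.61 ± 0.16 (adjusted p = 0.00891) and was at 0.28 ± 0.16 (adjusted p = 0.172) in aex-3 SUMO. For npp-5 the second probe set, 181476_s_at, was at 0.30 ± 0.14 (adjusted p = 0.096) in myo-4 SUMO, with no call, and for npp-1 the second, 186098_s_at, was at 0.31 ± 0.13 (adjusted p = 0.073) there. In aex-3 SUMO the probe sets with no call included 174188_at of npp-7, at 0.30 ± 0.18 (adjusted p = 0.188), and 192876_at of ran-3, at 0.26 ± 0.14 (adjusted p = 0.136). Calls therefore depend on which probe set is read for npp-7, npp-8, ran-2, ran-3, imb-2 and xpo-1 in aex-3 SUMO, and for npp-1, npp-5, npp-8, ran-2, ima-3 and xpo-1 in myo-4 SUMO. Taking every tested probe set, 46 of 61 rose in aex-3 SUMO and 49 of 61 in myo-4 SUMO.

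**Figure D4:**
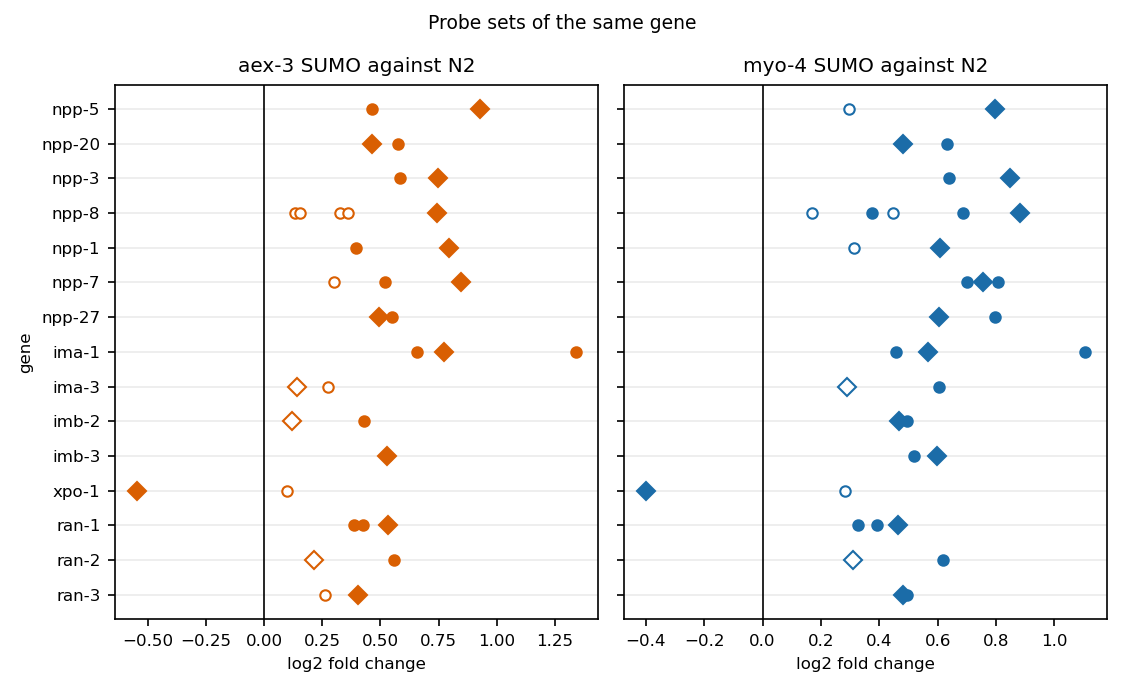
Log2 fold change against N2 (x axis) of every tested probe set of the 15 genes that have more than 1 (rows), in aex-3 SUMO and myo-4 SUMO; filled symbols were called, open ones were not, and diamonds mark the probe set that stands for the gene. Most genes keep all points right of 0, and xpo-1 has points on both sides.

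The lines were then compared with each other. No pore or transport gene was called between myo-4 SUMO and aex-3 SUMO by limma, where 0.239% of all probe sets were (26 higher and 8 lower in myo-4 SUMO), and 1 of 40 had an unadjusted p under 0.05, where 8.78% of all probe sets did. That gene was imb-2, at 0.35 ± 0.13 (95% interval 0.07 to 0.62, adjusted p = 0.411), and its other probe set stood at 0.07 ± 0.13 (adjusted p = 0.929). The median over the 40 genes was 0.09, beside 0.02 over all probe sets, and the differences ran from -0.24 (ran-5) to 0.35 (imb-2). The 95% interval reached 0.28 to either side for the median gene, and the intervals of all 40 genes lay between -0.67 and 0.66, with the width differing from gene to gene.

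As to further genes of the nuclear envelope, 8 of 12 tested in a list of envelope and lamina genes rose in both lines, and 4 fell in aex-3 SUMO and 2 in myo-4 SUMO. emr-1, the worm's emerin, had signals of 314, 259 and 338 in aex-3 SUMO, 313, 307 and 337 in myo-4 SUMO and 147, 131 and 153 in N2. It rose by 1.06 in aex-3 SUMO and 1.14 in myo-4 SUMO, past 2-fold in both. lem-3, a nuclease with a LEM domain, rose by 0.88 in aex-3 SUMO and 0.93 in myo-4 SUMO, and vrk-1, the kinase that frees chromatin from the envelope in mitosis, by 0.75 and 0.87. unc-83, a protein of the outer membrane that ties nuclei to motors for migration in larval precursor cells, fell to 116, 104 and 103 in aex-3 SUMO and 111, 116 and 112 in myo-4 SUMO, against 238, 161 and 286 in N2. Its changes were -1.03 in aex-3 SUMO and -0.97 in myo-4 SUMO. The genes of the list that fell beside it were lpin-1, a lipid phosphatase (-0.40 in aex-3 SUMO and -0.35 in myo-4 SUMO), and, in aex-3 SUMO, unc-84 (-0.46), its partner in the inner membrane, and the nuclear anchor anc-1 (-0.52), whose differences in myo-4 SUMO, -0.23 and -0.42, were not called.

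Of the mRNA export genes, 8 of 12 rose in each line, with medians of 0.63 in aex-3 SUMO and 0.57 in myo-4 SUMO. thoc-7, of the THO complex that couples transcription to export, rose by 1.27 in aex-3 SUMO and 1.05 in myo-4 SUMO. The export helicase hel-1 rose by 0.71 and 0.83 in those lines, nxf-2, of the export receptor family, by 0.85 and 0.77, and ddx-19, whose yeast counterpart removes export factors at the cytoplasmic face, by 0.65 and 0.68. Genes of the SUMO pathway were called higher more often than all probe sets, whose shares are given above. Of these genes 7 of 7 rose in aex-3 SUMO and 6 of 7 in myo-4 SUMO. These included smo-1 (0.69 in aex-3 SUMO and 0.59 in myo-4 SUMO), the protease ulp-5 (0.72 and 0.70), the protease ulp-2 (0.47 and 0.74) and the SUMO ligase gei-17 (0.48 and 0.55).

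Markers of tissues moved with the same contrasts. Oocyte and germ line markers were called higher for 13 of 15 in aex-3 SUMO and 14 of 15 in myo-4 SUMO, with medians of 0.86 and 0.94. Embryo markers were called higher for 7 of 10 in each line, and lower for 2 of 10 in aex-3 SUMO and 1 of 10 in myo-4 SUMO. Those called lower were elt-7 (-1.36 in aex-3 SUMO and -1.43 in myo-4 SUMO) and, in aex-3 SUMO, the dim end-1 (-1.42). Some genes of these lists are expressed in more than 1 tissue, so the embryo list does not mark embryos alone. The summed signal of the 15 oocyte and germ line genes was 14830 to 16480 in aex-3 SUMO, 14990 to 16930 in myo-4 SUMO and 7150 to 11720 in N2. The summed signal of the 40 pore and transport genes was 11060 to 12020 in aex-3 SUMO, 11610 to 11970 in myo-4 SUMO and 7167 to 9290 in N2. On both sums N2 replicate 1 was the highest and replicate 3 the lowest of the N2 arrays. Bright probe sets weigh most in a sum. The median signal of the 40 genes differed less, at 127.4, 124.8 and 121.1 on N2 replicates 1, 2 and 3. Whether the sums share a cause was not tested. Sperm markers had 0 of 9 called by limma in aex-3 SUMO and 1 of 9, lower, in myo-4 SUMO. At an unadjusted p under 0.05 there were 2 of 9 and 4 of 9, and the medians were -0.17 and -0.21. Yolk protein genes were higher for 4 of 5 in aex-3 SUMO and 3 of 5 in myo-4 SUMO.

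Intestinal, body wall muscle, neuronal and hypodermal markers were called lower more often than higher, though not all of them fell. Intestinal markers fell for 5 of 6 genes in both lines, with medians of -0.99 in aex-3 SUMO and -1.05 in myo-4 SUMO and a summed signal of 5414 to 5848 in aex-3 SUMO, 5222 to 6377 in myo-4 SUMO and 8545 to 10630 in N2. Body wall muscle markers fell for 6 of 8 in aex-3 SUMO and 5 of 8 in myo-4 SUMO, with 1 higher in each, neuronal markers for 6 of 9 and 5 of 9, and hypodermal and cuticle markers for 4 of 7 and 3 of 7. The part of these shifts in the changes of pore and transport genes was not tested. In whole animals more cells of a type and more RNA per cell cannot be told apart.

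**Figure D5:**
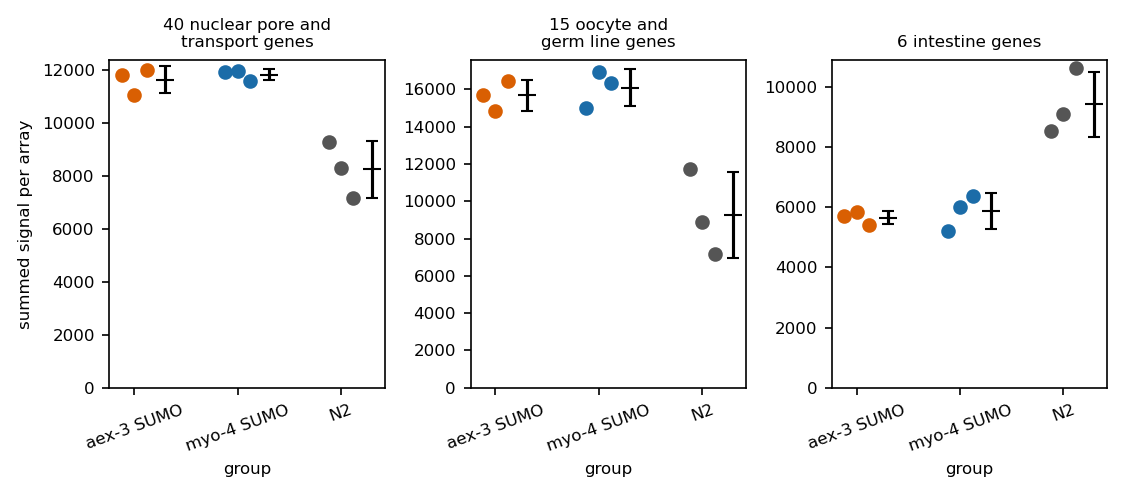
Summed signal per array (y axis) of the 40 tested pore and transport genes, 15 oocyte and germ line markers and 6 intestinal markers; dots are arrays and black marks the mean ± SD (n = 3 each) in aex-3 SUMO, myo-4 SUMO and N2. The pore and the germ line sums are higher in both lines than in N2, and the intestinal sum is lower.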

How the data were processed

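The deposited value table holds a linear signal intensity per probe set for each of 9 1-colour expression arrays, made by the authors. Per the submitters' processing notes the software was GCOS, of unstated version. The 2% trimmed means of the arrays agree within 0.00889%, so no further scaling was applied, and the table holds no detection call. Of 22625 probe sets 77 controls were left out. Genes were named through the platform's annotation, and all 64 gene IDs of the pore and transport probe sets matched a gene table used for names, chromosomes and neighbours.

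Values were transformed as log2(signal + 1.62), the pseudocount being the median over arrays of the 10th percentile. Probe sets above the 40th percentile on at least 3 arrays (14204) were fitted with limma 3.58.1 (R 4.3.3), with eBayes moderation along intensity, two-sided, with Benjamini-Hochberg adjustment per comparison and 6 residual plus 6.88 prior degrees of freedom. The number of arrays limits the precision. Tested on simulated data for the aex-3 SUMO comparison (14204 probe sets), the fit called 27 of 67 true changes of 1.5-fold, 57 of 67 of 2-fold and 66 of 66 of 4-fold, and 10 probe sets with none. No other probe sets were changed in the simulation, whereas 6833 were called in the data. With fewer changes the Benjamini-Hochberg cut-off is stricter, so these shares do not measure the recovery in the data.

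The genes, lists and tests were chosen with earlier results of these data known. Genes given array by array are up to 20 with the smallest p among those called without overlap of arrays, up to 6 with the largest p among those with no call, and the brightest and dimmest of each role; from the envelope, mRNA export and SUMO lists up to 4 genes with the smallest p are named, and the values of npp-20, imb-2, ran-5 and xpo-1 and the envelope genes that fell were added after they were seen. Arrays sharing a replicate number were not treated as pairs: their deviations from the group means correlated at -0.194 to 0.0295. Alternatives were other scalings, filters, pseudocounts, variance models and samples in the fit, a replicate block, every probe set of a gene, and each array left out.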

Additional observations from a re-analysis of the deposited data

How the results depend on the processing

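The number of pore and transport genes called higher kept within 25 to 37 of 40 in aex-3 SUMO and 29 to 37 of 40 in myo-4 SUMO over the settings tried with 1 probe set per gene. The calls of 22 genes in aex-3 SUMO and 29 in myo-4 SUMO stayed the same in all 15 settings, while 12 and 6 genes lost a call in at least 1 of them. A call was gained by 4 genes in aex-3 SUMO and 5 in myo-4 SUMO, and 2 in aex-3 SUMO turned sign. Median centring added aex-3 SUMO calls of npp-4 (adjusted p = 0.00557 by limma), npp-6 (0.0366), imb-2 (0.0364) and ran-2 (0.0154). In myo-4 SUMO it added npp-6 (0.0193), ima-3 (0.0274), ran-2 (0.0127) and ran-4 (0.0143). Quantile normalization ended the calls of npp-18 (0.30, adjusted p = 0.0519), npp-11 (0.25, adjusted p = 0.106), npp-20 (0.34, adjusted p = 0.107) and ran-5 (0.46, adjusted p = 0.0633) in aex-3 SUMO. In myo-4 SUMO it ended those of imb-2 (0.34, adjusted p = 0.0504), npp-20 (0.36, adjusted p = 0.0925), npp-24 (0.50, adjusted p = 0.076) and npp-4 (0.31, adjusted p = 0.143). Fitting only the groups compared ended the aex-3 SUMO calls of ran-5 (adjusted p = 0.0602), xpo-3 (0.0845) and npp-20 (0.064), and the myo-4 SUMO calls of npp-24 (0.0734), ran-1 (0.0689), npp-4 (0.0561) and npp-20 (0.0547). With no intensity trend ran-5 (0.0553), xpo-3 (0.0546) and npp-20 (0.0515) lost the call in aex-3 SUMO and npp-24 (0.0639) and ran-1 (0.0663) in myo-4 SUMO. With no filter ran-5 (0.0541) and xpo-3 (0.0664) lost it in aex-3 SUMO and npp-24 (0.0703) and ran-1 (0.0677) in myo-4 SUMO. A pseudocount of 16 ended that of xpo-3 in aex-3 SUMO (0.0508), each value in parentheses being the adjusted p by limma. The cause was not tested. The median change in aex-3 SUMO was 0.75 with median centring, 0.49 with a pseudocount of 16, 0.46 with quantile normalization, and 0.42 to 0.67 with an array left out. In myo-4 SUMO it was 0.72 with median centring, 0.52 with quantile normalization and 0.51 to 0.65 with an array left out. Between the lines it was 0.0153 with median centring and 0.0388 to 0.0858 with an array left out.

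The number of genes called lower, which is xpo-1 alone, was 0 in aex-3 SUMO with median centring (-0.33, adjusted p = 0.0843). In myo-4 SUMO it was 0 with median centring (-0.25, adjusted p = 0.185), with no filter (adjusted p = 0.0512) and with no intensity trend (adjusted p = 0.0598), and 0 to 1 with an array left out. The sign turned in aex-3 SUMO for npp-25, at 0.20 with median centring, 0.23 with quantile normalization and -0.13 to 0.16 with an array left out. It also turned for ima-3, at -0.0005 with quantile normalization and -0.0084 to 0.2614 with an array left out (the lowest without N2 replicate 3), and for the dimmer xpo-1 probe set, 192060_at, at -0.0403 with quantile normalization.

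Between the lines 246 probe sets were called in place of 34 when only those groups entered the fit, 21 with no intensity trend and 13 to 36 with an array left out. With the deposited scaling 76.5% of the calls were higher in myo-4 SUMO, with median centring 60%. A fit with the replicate block, although the replicate numbers do not pair the arrays, called 6464 probe sets in aex-3 SUMO in place of 6833 and 5971 in myo-4 SUMO in place of 6300, with 32 and 33 pore and transport genes higher. The block ended the call of xpo-3 in aex-3 SUMO (0.33, adjusted p = 0.0708). Signals near background limit npp-25 and npp-26, and no detection call is at hand to set that limit.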
